A study of Mus musculus with 6 samples.

Results

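The enzymes described are 8 members of non-essential amino acid synthesis and anaplerosis: Asns, Pck2, Aldh18a1, Pycr1, Gpt2, Got1, Got2 and Glul. They were taken by symbol from the array annotation, with the probe set of highest mean over all 6 arrays standing for each gene. Of the 8, 7 had a probe set that named the gene alone, among 19936 genes in all. Pycr1, which makes proline in mitochondria, was not analysed here. The probe sets were chosen by their mean level, and the list was drawn up with results of these data known. Asparagine synthetase (Asns), mitochondrial phosphoenolpyruvate carboxykinase (Pck2, PEPCK-M), the first enzyme of proline synthesis (Aldh18a1) and mitochondrial alanine aminotransferase (Gpt2) were higher in Sel1L knockout colon epithelium, while both aspartate aminotransferases (Got1, Got2) and glutamine synthetase (Glul) were not called.

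Gene expression was measured on Affymetrix arrays, 3 from Sel1L knockout and 3 from wild type mice, and the question of the series is whether the stress sensor IRE1α is degraded by endoplasmic reticulum (ER)-associated degradation, for which Sel1L is an adaptor. The knockout group (Sel1L-delta-IEC) was male, 8 weeks old and on a C57BL/6J background, with exon 6 of Sel1l floxed and removed by Cre driven by the villin-1 promoter, which is active in intestinal epithelium. The floxed allele came from KOMP embryonic stem cells, and its lacZ-neo cassette had been removed with the βActin-FLPe deleter. The wild type group was also male, 8 weeks old and C57BL/6J, and the labels do not say whether it carried the floxed allele or Cre. Nor is it stated whether the arrays of a group came from different mice, so the tests rest on array-to-array spread, which may be technical.

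These enzymes move nitrogen and carbon between a few amino acids and the citric acid cycle. Glutamate is the hub: it donates the amino group in transaminations, is reduced to proline, and takes up ammonia to form glutamine, while asparagine takes its amide from glutamine. PEPCK-M draws oxaloacetate out of the mitochondrial cycle as phosphoenolpyruvate. ATF4 is the transcription factor of the integrated stress response, translated when the ER kinase PERK or the amino acid sensor kinase GCN2 phosphorylates eIF2α, and Asns is a textbook target of it. Colonocytes use glutamine as a fuel beside butyrate.

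Levels are RMA values on a log2 scale, so a step of 1 is a doubling. Values of different probe sets are not compared with each other, except that marker levels are summed and set against the median of all genes. That use does not measure the share of a cell type. Changes are Sel1L knockout minus wild type with the moderated standard error (SE) of limma, with p-values adjusted over all genes and calls made below 0.05. Sel1l checked the labels: its change was -0.74 ± 0.11 (SE, adjusted p = 0.018), and no knockout array reached a wild type array, though the adjusted p was above 0.05 in 4 of 6 fits with an array left out (up to 0.087). Its probe set was not mapped to exon 6. All 13 measured markers of colon epithelium lay above the median level of all genes, against 4 of 10 for fibroblasts, 0 of 8 for smooth muscle, 0 of 8 for endothelium, 0 of 7 for enteric nerve and glia, 1 of 9 for T cells, 0 of 7 for B and plasma cells and 1 of 10 for macrophages and dendritic cells. None of these markers was called. The summed linear level of the epithelial markers, on the log2 scale, was 15.88 to 15.96 in knockout and 15.89 to 16.01 in wild type arrays. That sum weighs the brightest markers most. Single epithelial markers changed both ways, 6 up and 7 down, between -0.36 and 0.28. For macrophages and dendritic cells the sum was 9.44 to 9.49 in knockout and 9.53 to 9.65 in wild type arrays, without overlap. The brightest marker of that list, Cd14, changed by -0.35 ± 0.070 (limma adjusted p = 0.054). The mean log2 level over the 10 markers did overlap, at 5.81 to 5.87 in knockout and 5.82 to 5.94 in wild type arrays. Of the 10 changes 4 were positive and 6 negative, and the part of these cells in the results was not tested. In the list of pancreas and small intestine genes Cela1 was the single called gene of 7 (-0.68 ± 0.083). In bulk tissue a change in the number of cells of a type and a change in RNA per cell cannot be told apart. Wild type array 3 read higher than the other wild type arrays in all 4 called members, so its effect is given beside them.

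Of the 7 measured members, 4 were called and all 4 were higher in the knockout, against 1.63% of all genes called in either direction, 0.918% higher and 0.712% lower. The median change of the 7 was 0.72, against 0.019 over all 19936 genes. Groups did not overlap in those 4 members, as in 19.4% of all genes, 11.4% with the knockout higher and 7.98% with it lower. The 3 others lay within 0.051 of 0. The same 4 were called when wild type array 3 was left out, and 2 of 7, Asns and Pck2, when knockout array 1 or either of the other wild type arrays was left out.

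**Figure D1:**
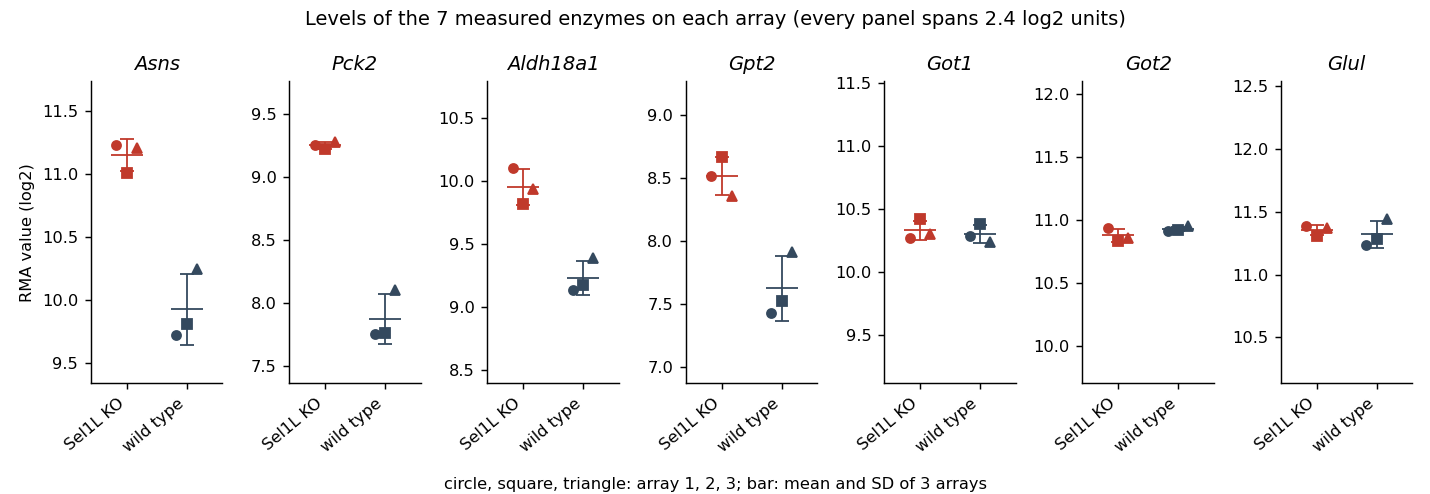
RMA log2 levels of the 7 measured enzymes on each array, Sel1L knockout left and wild type right in each panel, with the mean and SD of 3 arrays; every panel spans the same number of log2 units. The knockout arrays stand above all wild type arrays for Asns, Pck2, Aldh18a1 and Gpt2, and the groups overlap for Got1, Got2 and Glul.

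Asns makes asparagine from aspartate and glutamine. Its level was 11.24, 11.01 and 11.21 on the knockout arrays, against 9.72, 9.81 and 10.25 on the wild type arrays. Every knockout array was above every wild type array, with a gap of 0.76 between the nearest arrays, and wild type array 3 was the highest of its group by a clear margin. The mean was 11.15 ± 0.12 in knockout and 9.93 ± 0.28 in wild type (SD, n = 3 each). Asns rose by 1.22 ± 0.13 (SE), a 2.34-fold change with a 95% interval of 1.89 to 2.89 (limma adjusted p = 0.0068). It stayed called with any array left out, at adjusted p values from 0.0015 to 0.042. Aspg, which encodes an asparaginase that breaks asparagine down, read 8.06, 8.30 and 8.09 in knockout and 8.30, 8.00 and 8.08 in wild type arrays, and its change of 0.022 ± 0.097 was not called (adjusted p = 0.95).

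Pck2 converts mitochondrial oxaloacetate to phosphoenolpyruvate with GTP. It had the largest change of the members and the tightest knockout values, 9.25, 9.22 and 9.27, against 7.75, 7.76 and 8.10 in wild type. The gap between the nearest arrays was 1.12, against a range of 0.058 among the knockout arrays. Pck2 rose by 1.38 ± 0.097, or 2.60-fold with a 95% interval of 2.23 to 3.03 (limma adjusted p = 0.0013), and was the gene with the rank of 12 among all rises. The call held with each array left out, with the change between 1.32 and 1.49. Its cytosolic paralog Pck1, the PEPCK of liver and kidney gluconeogenesis, read 9.79, 9.94 and 9.61 in knockout and 9.56, 9.46 and 9.61 in wild type arrays. Knockout array 3 lay within the wild type range, and the change of 0.24 ± 0.091 was not called (adjusted p = 0.31).

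Aldh18a1 encodes P5C synthase, which turns glutamate into the precursor of proline and ornithine. It measured 10.11, 9.82 and 9.94 on knockout arrays and 9.14, 9.18 and 9.39 on wild type arrays, without overlap. The rise was 0.72 ± 0.095, or 1.65-fold with a 95% interval of 1.42 to 1.92 (limma adjusted p = 0.012). The call was lost when knockout array 1 or wild type array 1 or 2 was left out, where the adjusted p reached at most 0.055, and the change stayed between 0.65 and 0.80. Aldh4a1, which runs the opposite way from P5C to glutamate in proline breakdown, read 7.23, 7.35 and 7.30 in knockout and 7.36, 7.46 and 7.36 in wild type arrays, a change of -0.096 ± 0.064 that was not called (adjusted p = 0.58). 

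Gpt2 transfers the amino group between glutamate and alanine in mitochondria. Its knockout levels were 8.52, 8.67 and 8.36 and its wild type levels 7.43, 7.53 and 7.91. The groups did not overlap, but wild type array 3 stood 0.43 above the mean of the other wild type arrays and 0.45 below the lowest knockout array. Gpt2 rose by 0.89 ± 0.13, or 1.86-fold with a 95% interval of 1.51 to 2.29 (limma adjusted p = 0.017). It was the least stable of the 4 calls, held in 2 of the 6 fits with an array left out, those lacking array 3 of either genotype (adjusted p = 0.034 for knockout and 0.0068 for wild type), and reached adjusted p = 0.079 without knockout array 1. The cytosolic paralog Gpt read 7.63, 7.84 and 7.46 in knockout and 7.83, 7.72 and 7.17 in wild type arrays. Its groups overlapped, and its change was 0.072 ± 0.17 (adjusted p = 0.91).

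Got1 and Got2 encode the cytosolic and mitochondrial aspartate aminotransferases, which link glutamate and aspartate and carry the malate-aspartate shuttle. Got1 levels were 10.27, 10.42 and 10.30 in knockout and 10.29, 10.38 and 10.24 in wild type arrays. Got2 levels were 10.94, 10.84 and 10.86 in knockout and 10.91, 10.92 and 10.95 in wild type arrays. The groups overlapped for both genes. The changes were 0.028 ± 0.068 for Got1 and -0.051 ± 0.059 for Got2 (limma adjusted p = 0.91 and 0.78). The 95% intervals ran from 0.915-fold to 1.14-fold for Got1 and from 0.880-fold to 1.06-fold for Got2. A second Got2 probe set changed by -0.050.

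Glul encodes glutamine synthetase, which fixes ammonia on glutamate. It measured 11.38, 11.31 and 11.37 in knockout and 11.23, 11.29 and 11.44 in wild type arrays, and the wild type values spanned the knockout values. The change was 0.035 ± 0.070 with an interval of 0.916-fold to 1.15-fold (limma adjusted p = 0.89). A second Glul probe set read 10.56, 10.49 and 10.47 in knockout and 10.28, 10.38 and 10.51 in wild type arrays, a change of 0.12 ± 0.073 that was not called either (adjusted p = 0.55 over all probe sets).

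The difference between a member and its partner was tested within arrays, on the log2 level of the member minus that of the partner, so that only its change between genotypes is read. Of 9 planned pairs, 5 had a probe set naming each gene alone. For Pck2 minus Pck1 this difference was higher in the knockout by 1.14, for Asns minus Aspg by 1.20, for Gpt2 minus Gpt by 0.82 and for Aldh18a1 minus Aldh4a1 by 0.82. The groups did not overlap in these 4 pairs, and each gave an exact two-sided permutation p of 0.1, the smallest that 3 arrays against 3 allow (adjusted p = 0.125 over the 5 pairs), so none could pass a threshold of 0.05. In the pair of Gpt2 and Gpt wild type array 3 read 0.74, near the knockout arrays at 0.83 to 0.90; on that array Gpt2 was high and Gpt low for its group. Got1 minus Got2 differed by 0.079, with overlapping groups (exact permutation p = 0.5).

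**Figure D2:**
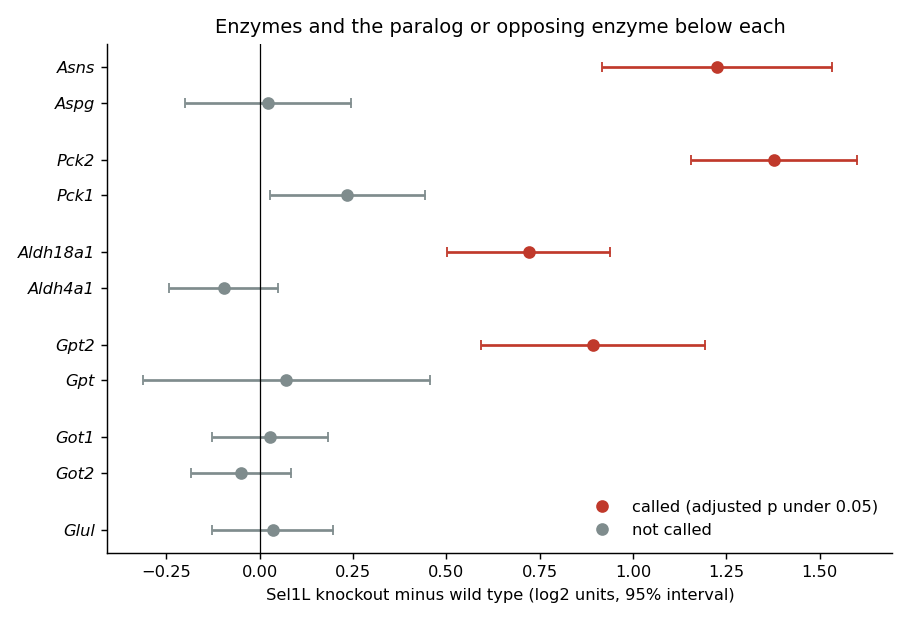
Change of each enzyme and of its paralog or opposing enzyme, Sel1L knockout minus wild type in log2 units, with 95% intervals from limma; red points were called. The intervals of Asns, Pck2, Aldh18a1 and Gpt2 lie wholly above 0.5, while those of Got1, Got2, Glul, Gpt, Aspg and Aldh4a1 include 0. That of Pck1, which was not called, runs from 0.028 to 0.44.

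The promoters of the members are shown because a run of 8 letters, TGATGNAA, is shared by many amino acid response elements bound by ATF4 with C/EBP partners, and because the Asns promoter is the classic example, with GTTACA as its downstream element. Promoters of all 8 members were found in the RefSeq table (GRCm38.p6), from 250 bases before the start to 50 after it, and are printed up to 20 bases after it, on the strand of the gene. Capitals mark TGATGNAA or GTTACA on either strand. The Asns stretch is chr6:7693190-7693459 (minus strand), that of Pck2 chr14:55540016-55540285 (plus strand), that of Aldh18a1 chr19:40588444-40588713 (minus strand) and that of Gpt2 chr8:85492326-85492595 (plus strand).
Asns: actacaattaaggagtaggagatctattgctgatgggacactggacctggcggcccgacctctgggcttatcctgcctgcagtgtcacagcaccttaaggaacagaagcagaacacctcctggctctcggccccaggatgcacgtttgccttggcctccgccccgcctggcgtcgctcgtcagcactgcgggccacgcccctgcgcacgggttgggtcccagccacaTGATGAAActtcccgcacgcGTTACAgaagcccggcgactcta
Pck2: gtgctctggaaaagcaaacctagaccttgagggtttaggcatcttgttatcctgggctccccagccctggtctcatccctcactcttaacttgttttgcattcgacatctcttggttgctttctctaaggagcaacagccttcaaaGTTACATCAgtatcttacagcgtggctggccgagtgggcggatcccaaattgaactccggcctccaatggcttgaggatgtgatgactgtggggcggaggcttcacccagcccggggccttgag
Aldh18a1: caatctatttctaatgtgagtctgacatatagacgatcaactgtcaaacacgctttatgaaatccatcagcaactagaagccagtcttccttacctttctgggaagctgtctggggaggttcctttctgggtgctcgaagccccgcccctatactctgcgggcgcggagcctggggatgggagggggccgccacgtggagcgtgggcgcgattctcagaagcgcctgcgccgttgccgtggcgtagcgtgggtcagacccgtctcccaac
Gpt2: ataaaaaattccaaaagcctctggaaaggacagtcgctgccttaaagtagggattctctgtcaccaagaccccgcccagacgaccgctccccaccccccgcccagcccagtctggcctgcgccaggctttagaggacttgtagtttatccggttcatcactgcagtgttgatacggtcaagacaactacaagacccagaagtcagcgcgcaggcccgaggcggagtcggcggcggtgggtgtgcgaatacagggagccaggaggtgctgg

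TGATGNAA was found in 3.97% of the 32851 promoters of that length in the table, and GTTACA in 8.25%. Among the 4 called members it occurred in Asns, as TGATGAAA from base -23, and in Pck2, as TGATGTAA on the opposite strand from base -103, counted from -1 for the base before the start. Both promoters also held GTTACA, at base -3 in Asns and at base -104 in Pck2. In Pck2 all but its first letter lies within the first motif on the other strand, so the matches are not separate as in Asns. Over all promoters 0.694% held both, overlapping matches included. Aldh18a1 and Gpt2 had neither in this window. Got1, which was not called, and Pycr1, which was not analysed, each had TGATGCAA. It ran from base -102 on the opposite strand in Got1 and from base -103 in Pycr1. Both are shown with 20 bases either side, at chr19:43524680-43524727 and chr11:120643824-120643871 (both minus strand).
Got1: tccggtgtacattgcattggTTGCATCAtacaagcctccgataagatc
Pycr1: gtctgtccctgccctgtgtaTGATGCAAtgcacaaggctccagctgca

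TGATGNAA was thus found in 2 of the 4 called members and in 1 of the 3 measured members that were not called, a difference that was not tested. Got2 and Glul had neither motif. Searches on both strands for TGACGTGG, an unfolded protein response element (0.676% of promoters), and TGACGTCA, the cAMP response element (1.79% of promoters), found no match in the 8 member promoters. In the ATF4 network list of 11 genes TGATGNAA occurred in the promoters of Nupr1 and Trib3, which were called, and Atf3, which was not. The called genes Atf4, Atf5 and Ddit3 had no match. A match is a run of letters and not a measured binding site.

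Among 11 transcription factors and feedback genes around ATF4, 5 were called, all higher, against 0.918% of all genes called higher. The median change of the 11 was 0.41, with 10 changes positive and 1 negative. Atf4 itself read 8.33, 8.35 and 8.37 in knockout and 7.73, 7.80 and 7.91 in wild type arrays and rose by 0.54 ± 0.066 (limma adjusted p = 0.0099). Ddit3, which encodes CHOP, a factor induced by ATF4, rose by 0.79 ± 0.098 (adjusted p = 0.010). Atf5 (0.84 ± 0.084), Nupr1, a stress-induced chromatin protein gene (1.03 ± 0.11), and Trib3, a pseudokinase that restrains ATF4 (0.85 ± 0.13), were the remaining calls. Trib3 lost its call in 5 of 6 fits with an array left out, all except that lacking wild type array 3 (adjusted p up to 0.079), and Atf4 lost it without knockout array 1 (adjusted p = 0.052). The array reads Atf4 mRNA and not its translation.

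Of 10 other aminotransferases, which like Gpt2, Got1 and Got2 mostly use glutamate or its keto acid, 2 were called higher and 1 lower. Over all genes 0.918% were called higher and 0.712% lower. The median change of the 10 was 0.088, with 8 changes positive and 2 negative. Psat1, the serine pathway transaminase, read 8.52, 8.18 and 8.21 in knockout and 6.98, 6.98 and 7.26 in wild type arrays, a rise of 1.22 ± 0.11. Bcat2, the mitochondrial branched-chain aminotransferase, read 9.79, 9.59 and 9.60 in knockout and 8.82, 8.86 and 8.97 in wild type arrays and rose by 0.78 ± 0.076 (adjusted p = 0.0064). Both calls held with any array left out. Kyat1, a glutamine-using kynurenine aminotransferase, fell, with a change of -0.48 ± 0.085 (adjusted p = 0.036), a call that held with an array left out only without knockout array 2 (adjusted p up to 0.13).

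Among 14 measured genes of proline, ornithine and arginine metabolism, 1 was called, against 1.63% of all genes in either direction. The median change of the 14 was 0.038. Oat, which interconverts ornithine and the P5C that Aldh18a1 makes, read 10.70, 10.68 and 10.57 in knockout and 10.35, 10.31 and 10.23 in wild type arrays and rose by 0.35 ± 0.065 (adjusted p = 0.039). That call ended with each array left out (adjusted p from 0.061 to 0.15), and it also ended with median centring (adjusted p = 0.052) or the replicate block (adjusted p = 0.065). Pycrl, a cytosolic P5C reductase, differed by -0.18 ± 0.066 (adjusted p = 0.28), and Prodh, the proline-degrading dehydrogenase, by -0.0091 ± 0.066.

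In the remaining lists no gene was called, against 1.63% of all genes called in either direction. At that share few calls or none fall in lists of this size. Among 10 genes of asparagine and aspartate use the median was 0.039, and the smallest p values were those of Got1l1 (0.17 ± 0.064, adjusted p = 0.28) and Ddo, an aspartate oxidase (0.28 ± 0.12, adjusted p = 0.33). Among 15 genes of glutamine and glutamate use 12 changes were negative and the median was -0.061, with Abat, the GABA transaminase (-0.27 ± 0.069, adjusted p = 0.12), and Pfas, of purine synthesis (-0.21 ± 0.069, adjusted p = 0.24), first. Among 18 genes of anaplerosis and phosphoenolpyruvate use the median was -0.0075. Malic enzyme Me1 had the lowest p there, at 0.73 ± 0.17 (adjusted p = 0.087), with knockout levels of 7.94, 7.70 and 7.64 and wild type levels of 6.82, 6.81 and 7.45. Wild type array 3 was again the high array of its group. Pkm, pyruvate kinase, differed by -0.21 ± 0.062 (adjusted p = 0.18). Among 22 genes of the citric acid cycle and malate-aspartate shuttle the median was -0.0023, and all changes lay between -0.14 and 0.19. Mdh1 (0.18 ± 0.057) and Idh2 (0.19 ± 0.077) came first, with adjusted p values of 0.20 and 0.32.

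**Figure D3:**
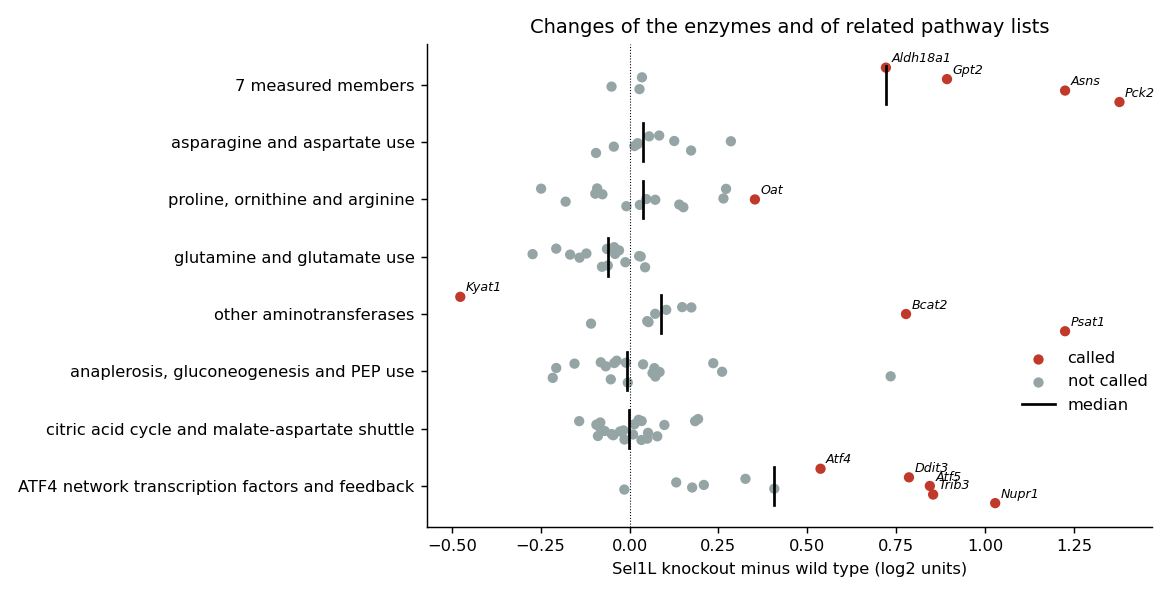
Change of every measured gene in the 7 members and in 7 related lists, Sel1L knockout minus wild type in log2 units, with called genes in red and named and a bar at each list's median. The called genes are 4 of the 7 members, 5 of 11 in the ATF4 network, 3 of 10 other aminotransferases and Oat.

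The 4 called members shared a pattern among wild type arrays. Averaged over them, wild type arrays 1, 2 and 3 lay -0.15, -0.096 and 0.25 from their group mean, and knockout arrays 1, 2 and 3 lay 0.060, -0.039 and -0.021 from theirs. Wild type array 3 deviated upward in each of the 4, by 0.15 to 0.32. Without that array the changes were at their largest, 1.39 for Asns, 1.49 for Pck2, 0.80 for Aldh18a1 and 1.04 for Gpt2. Psat1, Bcat2, Atf4, Nupr1 and Trib3 were also highest in wild type array 3 among the wild type arrays, while Ddit3 and Atf5 were highest in array 2 and Oat in array 1. Elsewhere array 3 departed from the mean of wild type arrays 1 and 2 both ways, by 0.64 for Me1 and -0.60 for Gpt. The share of all genes highest in that array was not counted.

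**Figure D4:**
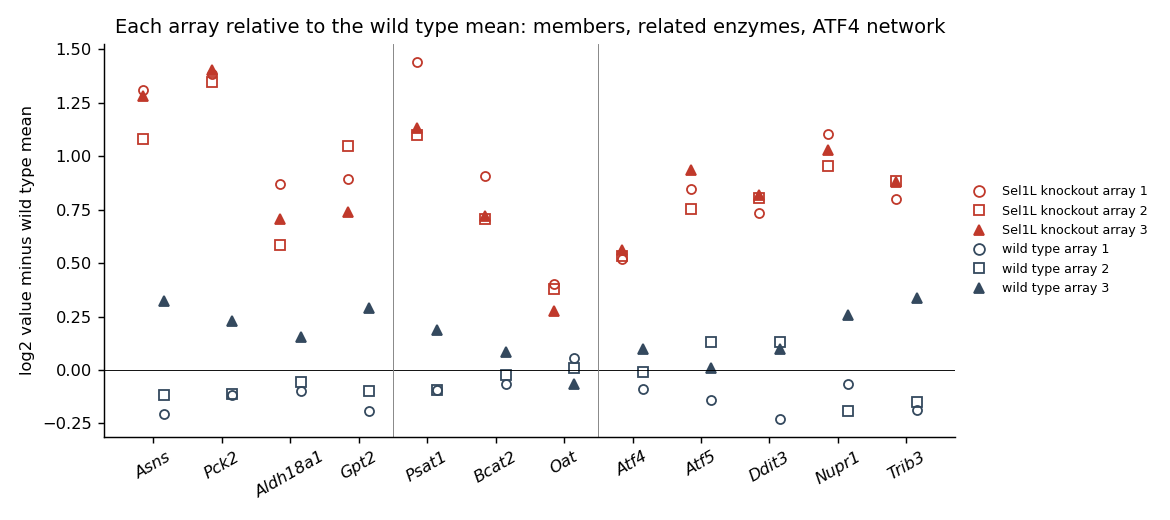
Log2 value of each array minus the wild type mean of that gene, for the 4 called members, related enzymes that rose and called genes of the ATF4 network; marker shape gives the array number, and filled triangles are array 3. Wild type array 3 lies above the other wild type arrays for all 4 members and below every knockout array.

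**Figure D5:**
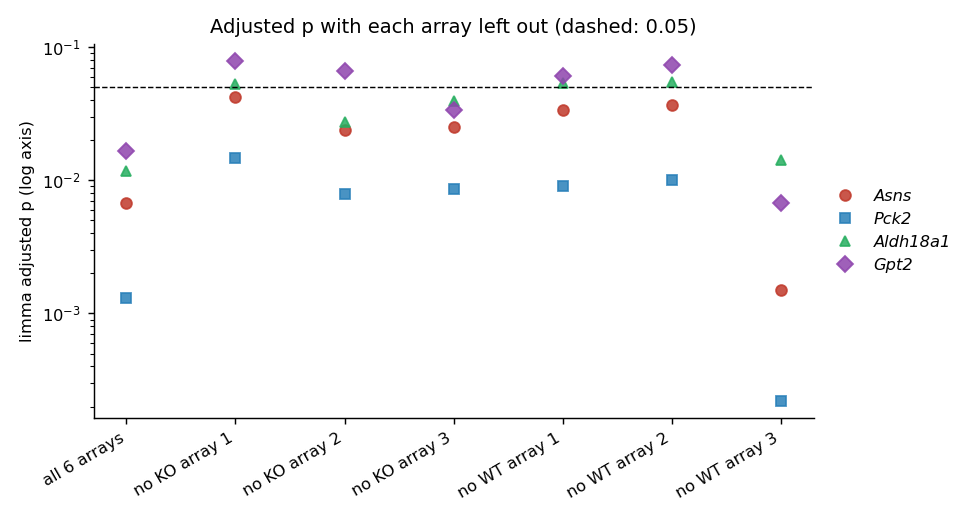
Adjusted p of the 4 called members in limma with all 6 arrays and with each array left out, on a log axis with a dashed line at 0.05. Asns and Pck2 stay below the line throughout, and Aldh18a1 and Gpt2 cross it when knockout array 1 or wild type array 1 or 2 is left out, Gpt2 also without knockout array 2.

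The genes whose values most resembled a called member were ranked by Pearson's r over the 6 arrays, which fall into 2 genotype groups, so this only describes shared order. For Pck2 these were Plxdc2, Tmem248 and Mcfd2 (each r = 0.999), of which Tmem248 (0.43 ± 0.058) and Mcfd2 (0.40 ± 0.058) were called. For Asns they were H13, Surf4 and Nars, the asparaginyl-tRNA synthetase gene, with r of 0.997, 0.996 and 0.996. Nars (0.49 ± 0.075, adjusted p = 0.019) was called and was also among the 3 nearest to Aldh18a1, with Fan1 and Rpl23. For Gpt2 they were Tmem214, Kremen1 and Rxrb, none of them called.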

How the data were processed

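Colon epithelium was profiled on 3 arrays from Sel1L knockout and 3 from wild type mice. The deposited log2 values had been made by the authors with RMA (background correction, normalization between arrays, summary per probe set), per the submitters' processing notes; which software and genome build were used is not stated there. The log2 scale was read from the values, and array medians lay between 6.32 and 6.36. The platform annotation gave 1 gene for 21789 of 35556 probe sets, several for 1621 and none for 12146. Symbols were updated through RefSeq (GRCm38.p6), by identifier for 21698 and by accession for 3, and 88 were kept. Each of 19936 genes was represented by its probe set of highest mean.

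The genotype effect was fitted in limma 3.58.1, R 4.3.3 (lmFit, eBayes, genotype only, two-sided, Benjamini-Hochberg over all genes), checked on simulated data, and pairs by exact permutation. Python 3.11.15, pandas 2.3.3 and matplotlib 3.10.9 were used otherwise. Precision is limited by the number of arrays. Genes named were the members, Sel1l, Atf4, Ddit3 and the measured second gene of each planned pair, with Pycrl and Prodh planned as partners of Pycr1. Named too were the called genes of each pathway list, or otherwise its 2 lowest p values, and the 3 genes most like each called member. Cela1, Cd14 and genes of the promoter search were added after their values were seen. Members and lists were chosen with earlier results of these data known. Alternatives were leaving out each array, averaging probe sets, array weights, an intensity trend, filters on the dimmest 25% or 50%, median centring, quantile normalization and a block on replicate number. No batch information was used.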

Additional observations from a re-analysis of the deposited data

How the results depend on the processing

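Under the 8 alternatives that kept all arrays, 4 of 7 members stayed called and higher, with changes of 1.20 to 1.25 for Asns, 1.36 to 1.39 for Pck2, 0.70 to 0.73 for Aldh18a1 and 0.87 to 0.92 for Gpt2. With an array left out 2 to 4 members were called. The count of called genes over all genes was 325 (183 higher, 142 lower) in the main fit. It was 598 (324 higher, 274 lower) without the dimmest 50% of genes and 614 (325 higher, 289 lower) with an intensity trend. With an array left out it ran from 69 to 303 (46 to 190 higher, 23 to 113 lower). The highest of these counts, 303, came without wild type array 3. Median centring turned the balance of directions, to 163 higher and 176 lower. With the replicate number as a block 217 genes were called, 117 of them higher, and the adjusted p values of Asns and Gpt2 were 0.011 and 0.044. Deviations of same-numbered arrays correlated at -0.10, 0.15 and 0.15 across genes, against -0.26 to 0.12 for arrays of different number. Arrays 2 and 3 of each genotype correlated best with their own number, and arrays 1 did not. The labels do not say that the numbers mark a shared litter or day, so they were not taken as pairs in the main fit. The block ended the call of Oat, as did median centring. The pair differences kept their direction under every alternative run on them. With an array left out the lowest was 0.014, for Got1 minus Got2. Among the 4 pairs that did not overlap it was 0.60, for Gpt2 minus Gpt, and the highest was 1.39, for Asns minus Aspg. Permutation within replicate numbers gave an adjusted p of 0.31 for each of those 4 pairs. Each was at the smallest p that this permutation allows, so none could be called. It therefore cannot show whether pairing by number weakens the differences. Signs turned for Got1, to -0.016 without knockout array 2 and -0.0028 without wild type array 3, and for Glul, to -0.0080 without wild type array 1, all uncalled, with highest values of 0.066 (Got1) and 0.094 (Glul) when an array was left out. The causes of these shifts were not tested.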
